A study of Homo sapiens with 16 samples.

Results

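Ribosome footprints were compared between MDA-MB-231 cells carrying a tRNA-Ile-UAU overexpression construct and the same cells carrying a control construct, both with a CRISPRi guide against eGFP. The comparison was defined by the labels alone and uses 4 of the 16 libraries of the series, 2 with the tRNA-Ile-UAU construct and 2 with the control construct. All 4 are ribosome-protected fragment libraries. MDA-MB-231 is a mesenchymal-like, triple-negative human breast cancer line, and the labels give a xenograft cell line as its source. In CRISPRi a guide RNA brings a silencing form of Cas9 to a promoter. The cells of both groups carry the eGFP guide, a target foreign to human cells, so the construct is the labelled difference between them.

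The series has 8 groups of 2 libraries, formed by assay (footprints or total RNA), guide (tRNA-Ile-GAU or eGFP) and construct (tRNA-Ile-UAU or control). Its stated question is how ribosomes occupy messages rich in isoleucine codons when the isoleucine tRNAs are shifted towards UAU and away from GAU. The cells were grown on dishes without further treatment. Nothing in the labels says that replicates were separate cultures, or how the construct was delivered, how strongly it was expressed or whether a line was 1 clone. The p-values therefore measure only the spread between these libraries, which may be technical.

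Ribosome profiling sequences the short mRNA pieces left under ribosomes after nuclease digestion, so the number of footprints on a gene reflects both how much of its mRNA is present and how many ribosomes sit on it. Isoleucine is encoded by AUU, AUC and AUA. The UAU tRNA reads AUA, the rarest of these codons in human genes, and the GAU tRNA, named for its anticodon, pairs with AUC and AUU, which the AAU tRNA with its modified inosine also reads. Human tRNA-Ile-UAU genes carry an intron that a dedicated endonuclease removes, and RNA polymerase III transcribes all of these genes.

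The RefSeq annotation of GRCh38.p14 lists 5 tRNA-Ile genes with the TAT anticodon, 3 with GAT and 14 with AAT. The TAT genes are 93 to 94 bases long, against 74 bases for each GAT and AAT gene. They are TRI-TAT1-1 (chr19:39412168-39412260), TRI-TAT2-1 (chr2:42810536-42810628), TRI-TAT2-2 (chr6:27020346-27020439), TRI-TAT2-3 (chr6:27631421-27631514) and TRI-TAT3-1 (chr6:28537590-28537683). Of the 26485 gene symbols listed in the count files, 0 are tRNA genes, so the level of the overexpressed tRNA was not analysed here.

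Promoter stretches of a pair of genes are printed because the results turn on these genes and because each stretch holds letters of a known class. RPL7A was called in footprints, and CTGF, under its current name CCN2, had one of the lowest p-values. Both come from the RefSeq promoter table of GRCh38.p14 and are written 5′ to 3′ on the gene's strand, RPL7A from chr9:133348138-133348237 (plus strand, 80 bases before the transcription start and 20 after) and CTGF from chr6:131951353-131951552 (minus strand, 180 before and 20 after). Capitals in RPL7A mark the run of 25 pyrimidines that begins 9 bases before the annotated start. Capitals in CTGF mark GGAATG, the core of the site bound by TEAD factors, which begins 169, 104 and 95 bases before the start.
RPL7A: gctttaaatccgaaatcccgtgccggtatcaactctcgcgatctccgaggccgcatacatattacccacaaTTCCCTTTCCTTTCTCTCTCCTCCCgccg
CTGF: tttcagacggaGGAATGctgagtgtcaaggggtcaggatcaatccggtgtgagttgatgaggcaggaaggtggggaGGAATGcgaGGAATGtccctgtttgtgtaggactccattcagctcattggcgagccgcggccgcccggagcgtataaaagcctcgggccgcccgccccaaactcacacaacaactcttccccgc

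A run of at least 8 C or T letters across the annotated start was found in 1658 of the 35116 promoters of the table (4.72%) and in 48 of the 81 promoters of cytosolic ribosomal proteins (59.3%). Transcripts that begin with a pyrimidine run form the class known as TOP mRNAs. The runs counted here may lie partly before the start, so the shares are not shares of TOP mRNAs. At least 1 GGAATG on either strand was found in 4928 of the 35116 promoters (14.03%), and at least 3 in 44 (0.125%). These matches describe letters and not bound sites.

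Genes received 358340 and 583338 footprint counts in the tRNA-Ile-UAU construct libraries, against 607919 and 605973 in the control libraries, so the shallowest of all 8 footprint libraries belongs to the construct group. Of uniquely placed reads, 31.3 and 30.8% fell on no gene in the construct libraries, against 26.6 and 26.6% in the controls; the part of this difference in the results was not tested. In the footprint libraries 97.0 to 98.8% of alignments were of reads placed at more than 1 position. Replicates correlated across genes at 0.947 with the construct and 0.960 with the control (log2 CPM, which are counts scaled to a common library total). The mesenchymal markers of the line summed to 20707 to 21683 CPM in the construct libraries, against 21813 to 22426 in the controls, with 0 of 10 undetected. Of the luminal markers, ESR1 and PGR had no footprint in any of the 4 libraries, and the list summed to 626 to 638 CPM with the construct, against 514 to 627 CPM with the control. Fibroblast markers summed to 33.2 to 48.6 CPM with the construct and 30.5 to 32.0 CPM with the control, with DCN, LUM and POSTN at 0. Immune markers summed to 148 to 203 CPM with the construct and 143 to 188 CPM with the control, with CD3E at 0. Endothelial markers summed to 2.86 to 6.99 CPM with the construct and 5.05 to 10.2 CPM with the control, with CDH5 and TEK at 0. In such bulk lysates fewer cells carrying a message and fewer messages per cell cannot be told apart.

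Footprints were called different on very few genes with the tRNA-Ile-UAU construct. Of 8143 genes tested, 2 (0.0246%) were called by edgeR's quasi-likelihood test at a Benjamini-Hochberg adjusted p under 0.05. Both rose with the construct. They were GBP2, an interferon-inducible GTPase that attacks pathogen vacuoles, and RPL7A, which is built into the large subunit of the ribosome. No gene was called lower (0.0%), with 222 genes lower at an unadjusted p under 0.05 (2.73%) and 187 higher (2.30%), and DESeq2 called 0 genes in either direction. In all, 409 genes (5.02%) had an unadjusted p under 0.05.

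The fold changes of all tested genes centred on a median of -0.00 (log2), with quartiles of -0.18 and 0.19 and 5th and 95th percentiles of -0.56 and 0.56. For 5486 genes (67.4%) the 95% interval of the fold change lay within 2-fold in both directions. Within 1.5-fold it lay for 2367 genes (29.1%), and for 1869 of the 2294 genes with at least 100 CPM (81.5%). In simulated counts of this depth and spread the test called 45 of 97 genes changed 2-fold and 16 of 99 changed 1.5-fold. Changes of 1.5-fold were mostly not detectable at this depth.

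**Figure D1:**
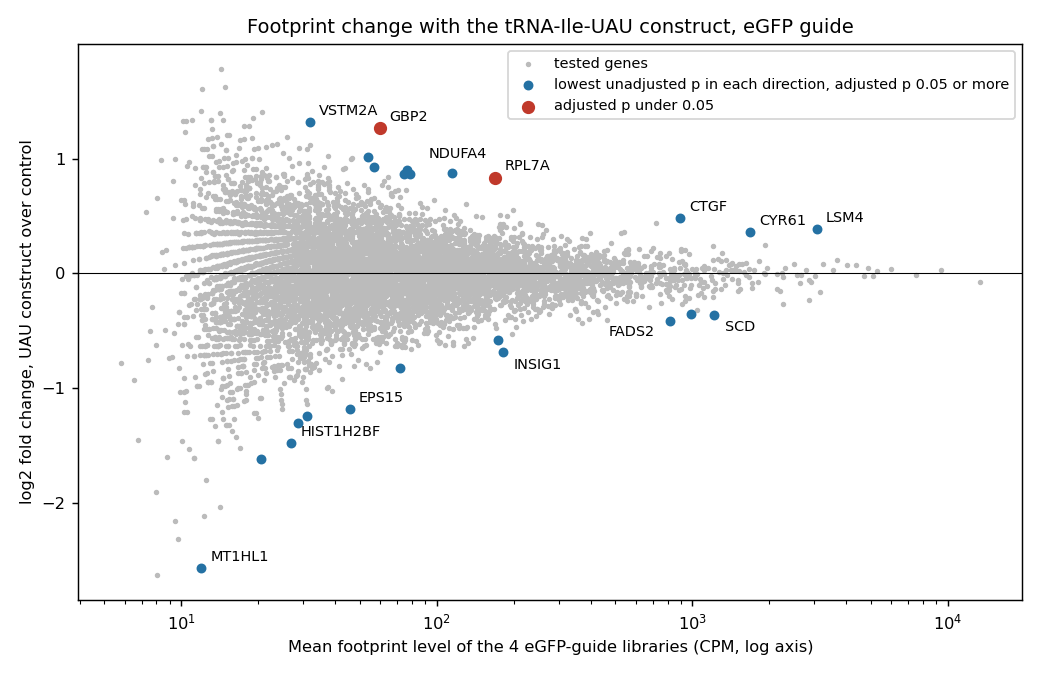
Log2 fold change in footprints (tRNA-Ile-UAU construct over control, eGFP guide, vertical axis) against the mean level over the 4 libraries in CPM (horizontal log axis), 1 point per tested gene. GBP2 and RPL7A, in red, are the 2 called genes of 8143, and the blue points are the other 22 genes named for their p-value. Of these, LSM4, CYR61 and CTGF lie to the right among genes with many footprints and have small fold changes.

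GBP2 (chr1:89106132-89126114) had 80.0 and 89.1 CPM in the construct libraries, against 40.4 and 30.5 CPM in the controls, from 28 and 51 counts and from 24 and 18 counts. Both construct libraries lay above both controls. The level averaged 84.6 ± 6.40 CPM with the construct and 35.5 ± 6.99 CPM with the control (SD, n = 2 each), a log2 fold change of 1.26 ± 0.28 (SE; adjusted p = 0.0423 by edgeR's quasi-likelihood test), or 2.40-fold. Total RNA of GBP2 was 53.4 and 49.5 CPM with the construct and 40.4 and 54.8 CPM with the control, and these groups overlapped (log2 0.10 ± 0.18, adjusted p = 0.999). Without construct replicate 1, construct replicate 2, control replicate 1 or control replicate 2 the adjusted p was 0.0993, 0.970, 0.498 or 0.809, at log2 fold changes between 1.08 and 1.48, so the call needs all 4 libraries.

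RPL7A (chr9:133348218-133351426) had 174 and 255 CPM in the construct libraries, against 123 and 125 CPM in the controls. Construct replicate 2 stood highest, and the groups did not overlap. The log2 fold change was 0.83 ± 0.18 (adjusted p = 0.0423), with group means of 215 ± 57.1 CPM for the construct and 124 ± 1.81 CPM for the control (SD, n = 2 each). Its total RNA was 303 and 333 CPM with the construct and 317 and 320 CPM with the control. Without construct replicate 2 the log2 fold change was 0.49 (adjusted p = 0.970), and without control replicate 1 or 2 the adjusted p was 0.700 or 0.809, so the gene was no longer called. Without a filter on low counts both GBP2 and RPL7A had an adjusted p of 0.0622, and after thinning every footprint library to the shallowest it was 0.269 for GBP2 and 0.160 for RPL7A. Ribosomal protein genes have many near-identical pseudogenes, so their counts depend on how shared reads were assigned.

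The other large-subunit proteins gave no further call, where 0.0246% of all tested genes were called. Of the 40 large-subunit proteins tested, 14 were higher and 26 lower with the construct, with a median log2 fold change of -0.05, against -0.00 over all tested genes. RPL7A was the 1 member called, and 3 members were lower at an unadjusted p under 0.05, against 2.73% of all tested genes. RPL29 (log2 -1.62 ± 0.51) and RPL32 were among these 3. RPL29 had 14.3 and 6.99 CPM with the construct and 20.2 and 40.7 CPM with the control. Of the 27 small-subunit proteins, 13 were higher and 14 lower, with a median of -0.00.

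By unadjusted p, 12 genes in each direction were named among those whose construct libraries both lay above or both below the controls, a state that 1351 of 8143 genes (16.6%) showed upwards and 1391 (17.1%) downwards. The 12 higher genes had log2 fold changes of 0.36 to 1.32 and the 12 lower ones of -2.57 to -0.36. Apart from the 2 called genes, their adjusted p ran from 0.121 to 0.490. Leaving out 1 library turned the sign of 0 of the 24 and moved the log2 fold change of 6 by over 1.5 times.

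Secreted matricellular proteins that answer to the transcriptional coactivator YAP stood among the higher genes. CTGF (chr6:131948176-131951372), whose promoter is printed above, had 903 and 1177 CPM in the construct libraries, against 682 and 826 CPM in the controls. Its groups did not overlap, and the log2 fold change of 0.48 ± 0.12 did not pass the threshold (adjusted p = 0.121). CYR61 (chr1:85580761-85583950), its close relative, had 1664 and 2124 CPM with the construct, against 1369 and 1597 CPM with the control (log2 0.36 ± 0.11, adjusted p = 0.490). In total RNA CYR61 had 507 and 699 CPM with the construct, against 350.3 and 426 CPM with the control (log2 0.64 ± 0.15, unadjusted p = 0.00222, adjusted p = 0.999). CTGF had 154 and 239 CPM in total RNA with the construct and 134 and 148 CPM with the control. Construct replicate 2 was the highest library for both genes in both assays. Without it the log2 fold change in footprints was 0.26 for CTGF and 0.16 for CYR61, and without construct replicate 1 it was 0.64 for CTGF, then called (adjusted p = 0.0269), and 0.52 for CYR61 (adjusted p = 0.209).

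ANKRD1, a nuclear ankyrin-repeat protein and another common YAP readout, depended on 1 library. It had 575 and 1069 CPM with the construct and 672 and 578 CPM with the control, so that construct replicate 1 lay below both controls and construct replicate 2 above them. The log2 fold change was 0.43 ± 0.13 (adjusted p = 0.454) with all libraries, 0.78 without construct replicate 1 (adjusted p = 0.00159) and -0.12 without construct replicate 2 (adjusted p = 0.976). Over the 19 YAP targets tested, 11 were higher and 8 lower with the construct, against 49.6% higher and 50.4% lower of all tested genes. Of these 19, 4 were higher and 0 lower at an unadjusted p under 0.05, against 2.30% and 2.73% of all tested genes. The median log2 fold change of the list was 0.04, against -0.00 over all tested genes.

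Other higher genes belonged to separate processes. NDUFA4, a small respiratory chain subunit, had 165.8 and 133 CPM in the construct libraries, against 89.2 and 69.5 CPM in the controls (log2 0.88 ± 0.21, adjusted p = 0.121). Its total RNA ran the opposite way, at 2.37 and 2.84 CPM with the construct and 6.73 and 6.01 CPM with the control, levels too low for a firm fold change (log2 -1.26 ± 0.51, adjusted p = 0.999). LSM4 (chr19:18306236-18323076), a member of the Lsm ring that binds the ends of decaying mRNAs and of U6 RNA, had 3309.9 and 3629.9 CPM with the construct, against 2393 and 2939 CPM with the control (log2 0.38 ± 0.11, adjusted p = 0.454). GABARAPL2, an autophagosome protein, had 74.3 and 69.9 CPM with the construct, against 37.0 and 33.9 CPM with the control (log2 1.01 ± 0.29). Footprints on NIN, a centrosomal anchor of microtubules, numbered 82.9 and 117 CPM with the construct and 58.9 and 54.3 CPM with the control. RBM33, an RNA-binding protein, WRNIP1, an ATPase of replication stress, and FNBP4, a formin-binding protein, had log2 fold changes of 0.90, 0.87 and 0.92. VSTM2A had log2 1.32 ± 0.40, from 51.4 and 40.2 CPM with the construct and 23.6 and 11.9 CPM with the control, with 0 total RNA counts in all 8 libraries.

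**Figure D2:**
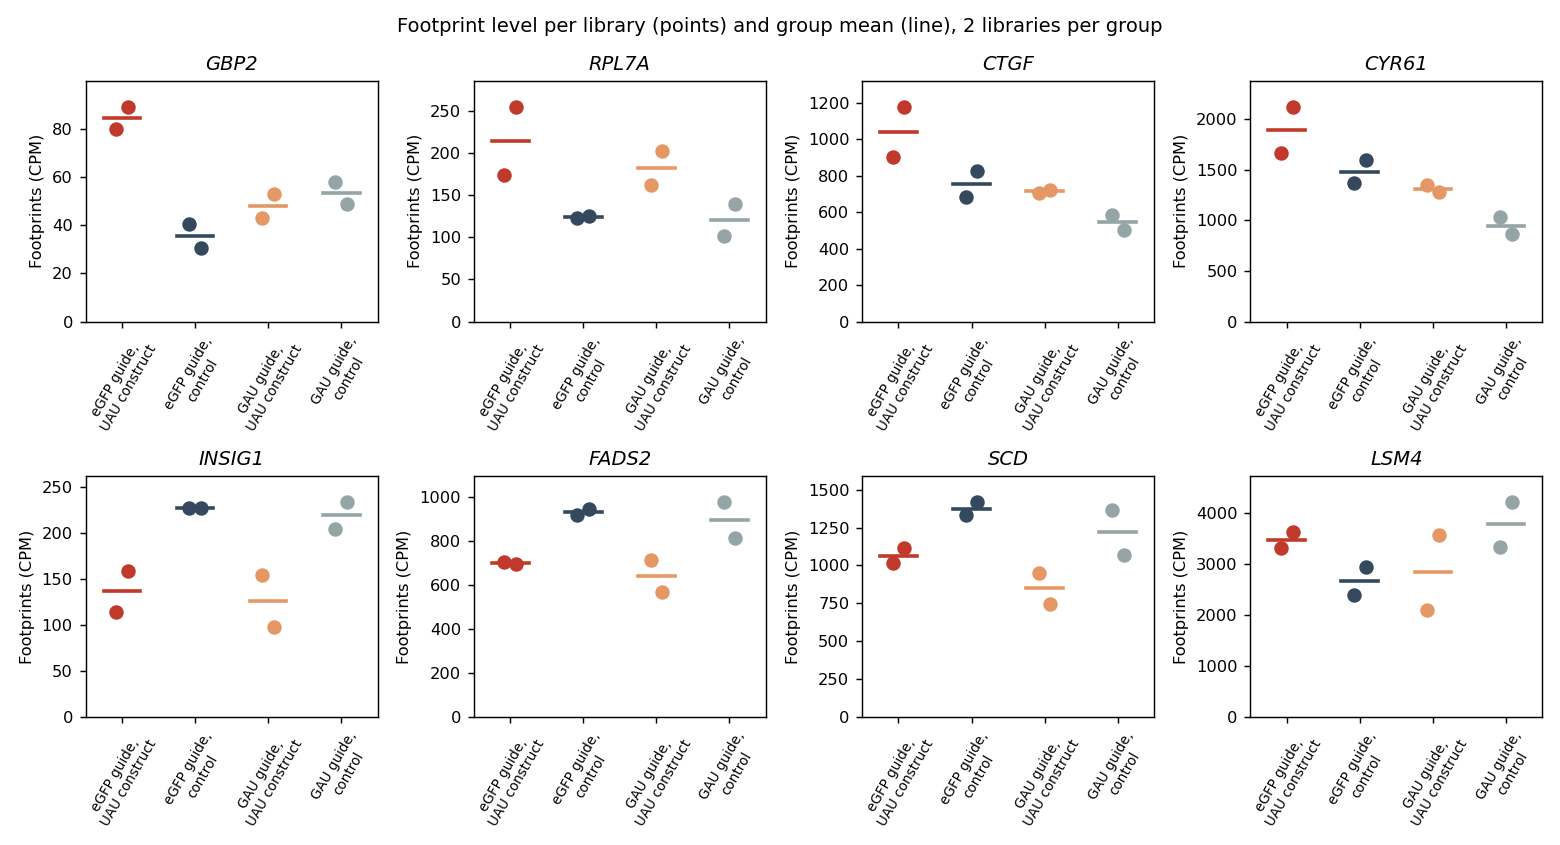
Footprint level in CPM (vertical axes from 0) of 8 genes in each library (points, 2 per group) with the group mean (line), for the tRNA-Ile-UAU construct and then the control under the eGFP guide, followed by the same pair under the tRNA-Ile-GAU guide. GBP2 is high in the eGFP-guide construct libraries at 80.0 and 89.1 CPM, against 40.4 and 30.5 CPM in their controls, and INSIG1, FADS2 and SCD lie below the controls with both guides.

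Lipid synthesis genes filled several of the lower places. INSIG1 (chr7:155297878-155310235) retains SCAP, and with it the SREBP precursors, in the ER when sterols are plentiful, and is itself an SREBP target. It had 114 and 159 CPM in the construct libraries, against 227 and 227 CPM in the controls (log2 -0.69 ± 0.18, adjusted p = 0.282). Both construct libraries lay below both controls, as in total RNA, with 315 and 311 CPM for the construct and 465 and 419 CPM for the control (log2 -0.49 ± 0.11, unadjusted p = 0.00156, adjusted p = 0.999). FADS2 (chr11:61816203-61867354), a front-end desaturase of polyunsaturated fatty acids, had 703 and 695 CPM with the construct, against 919 and 946 CPM with the control (log2 -0.42 ± 0.12, adjusted p = 0.454). SCD (chr10:100347233-100364826), which makes monounsaturated fatty acids, had 1015 and 1113 CPM with the construct, against 1332 and 1419 CPM with the control (log2 -0.37 ± 0.11, adjusted p = 0.490). Construct and control libraries of FADS2 and SCD did not overlap. In total RNA FADS2 had log2 0.01 ± 0.25 and SCD log2 -0.24 ± 0.12.

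Across the 27 tested genes of cholesterol synthesis and sterol control, 5 were higher and 22 lower with the construct, against 49.6% higher and 50.4% lower of all tested genes. Of these 27, 0 were called. At an unadjusted p under 0.05, 5 of the 27 were lower and 0 higher, against 2.73% and 2.30% of all tested genes. Their median log2 fold change was -0.23 in footprints and -0.18 in total RNA, where 5 were again lower at that level, against 0.768% of all genes tested in total RNA. In 14 of the 27 both construct libraries lay below both controls, against 17.1% of all tested genes, and in 2 above, against 16.6%. DHCR7, which carries out the last step to cholesterol, had 300.1 and 285 CPM with the construct, against 399 and 351 CPM with the control (log2 -0.36 ± 0.15, unadjusted p = 0.0129, adjusted p = 0.856). SREBF2, the master transcription factor, had 97.2 and 107 CPM with the construct, against 131 and 154 CPM with the control (log2 -0.47 ± 0.20, adjusted p = 0.884). The groups of DHCR7 and SREBF2 did not overlap.

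The list of fatty acid synthesis and desaturation held 20 tested genes, with 0 called. Of these, 5 were higher and 15 lower, against 49.6% and 50.4% of all tested genes. Lower at an unadjusted p under 0.05 were 4 members, and higher 0, against 2.73% and 2.30% of all tested genes. The list's median log2 fold change was -0.08. Construct libraries lay below both controls in 8 of the 20, against 17.1% of all tested genes, and above both in 0, against 16.6%. FADS1, the partner desaturase of FADS2, had 314 and 314 CPM with the construct, against 439 and 410.4 CPM with the control (log2 -0.43 ± 0.14, adjusted p = 0.531). FASN, the fatty acid synthase itself, had 2072 and 2037 CPM with the construct, against 2287 and 2650.4 CPM with the control (log2 -0.27 ± 0.10, adjusted p = 0.809).

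Among histone genes, whose mRNAs lack poly(A) tails and peak in S phase, lower members also outnumbered higher ones, and 1 library of each group carried most of the difference. Of 18 tested, 4 were higher and 14 lower, against 49.6% higher and 50.4% lower of all tested genes. At an unadjusted p under 0.05, 6 were lower and 0 higher, against 2.73% and 2.30% of all tested genes. Of the list 0 were called, and its median log2 fold change was -0.19. In 7 of the 18 both construct libraries lay below both controls, against 17.1% of all tested genes, and in 0 above, against 16.6%. The members' median deviation from the 4-library mean was -0.01 and -0.18 (log2) in the construct libraries, against 0.01 and 0.16 in the controls, so replicate 1 of either group lay near 0. Leaving out 1 library gave list medians up to -0.08. The list's 3 members of lowest p were HIST1H1D, HIST1H2BC and HIST1H4H, with log2 fold changes of -2.32, -0.33 and -0.27. HIST1H1D had 0 and 3 counts with the construct and 15 and 5 with the control. HIST1H2BF, HIST1H4B and HIST1H2BM, named by p over all genes, are outside the 18 of the list. HIST1H2BF had 14.3 and 13.97 CPM with the construct, against 30.3 and 49.2 CPM with the control (log2 -1.48 ± 0.43, adjusted p = 0.454), and its total RNA count was 0 in every library. HIST1H4B had 872 and 866 CPM with the construct, against 1099.6 and 1129 CPM with the control (log2 -0.36 ± 0.11). HIST1H2BM had 149 and 131 CPM with the construct and 199 and 215 CPM with the control. The linker histone HIST1H1E had log2 -0.23 ± 0.10. Histone genes of a type are near-identical in their coding sequence, so counts of single members are uncertain.

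The remaining lower genes came from unrelated groups. EPS15, an adaptor of clathrin-mediated endocytosis, had 22.9 and 31.4 CPM with the construct, against 57.3 and 71.2 CPM with the control (log2 -1.19 ± 0.32, adjusted p = 0.346), while its total RNA had log2 -0.08 ± 0.13. PBXIP1, a partner of PBX homeobox factors, had log2 -0.82 ± 0.25. SERPINA1, an elastase inhibitor, had log2 -1.25 ± 0.39 from 6 and 11 counts with the construct and 26 and 26 with the control. ARAP3, a GTPase-activating protein of small G proteins, had log2 -1.31 ± 0.41, and the metallothionein-like MT1HL1, with 2 and 1 counts in the construct libraries and 14 and 10 in the controls, had log2 -2.57 ± 0.77.

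Interferon-stimulated genes, which include GBP2, had the highest list median among the lists with at least 5 tested members. Of 48 tested, 36 were higher and 12 lower with the construct, against 49.6% higher and 50.4% lower of all tested genes, with a median log2 fold change of 0.22 in footprints and 0.12 in total RNA. GBP2 was the 1 member called. Members higher at an unadjusted p under 0.05 numbered 4, and lower 0, against 2.30% and 2.73% of all tested genes. In 19 of the 48 both construct libraries lay above both controls, against 16.6% of all tested genes, and in 3 below, against 17.1%. IFI16, a nuclear sensor of foreign DNA, had 163 and 152 CPM with the construct, against 111 and 94.96 CPM with the control (log2 0.60 ± 0.20, adjusted p = 0.587). IFI44 had 45.7 and 69.9 CPM with the construct, against 42.1 and 30.5 CPM with the control (log2 0.73 ± 0.30, adjusted p = 0.884). TAP2, a subunit of the peptide transporter for MHC class I, had 134 and 117 CPM with the construct, against 84.2 and 93.3 CPM with the control (log2 0.48 ± 0.21, adjusted p = 0.884). The median deviation of the list's members from their 4-library mean was 0.09 and 0.13 (log2) in the construct libraries, against -0.05 and -0.14 in the controls. Leaving out 1 library gave list medians down to 0.12.

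**Figure D3:**
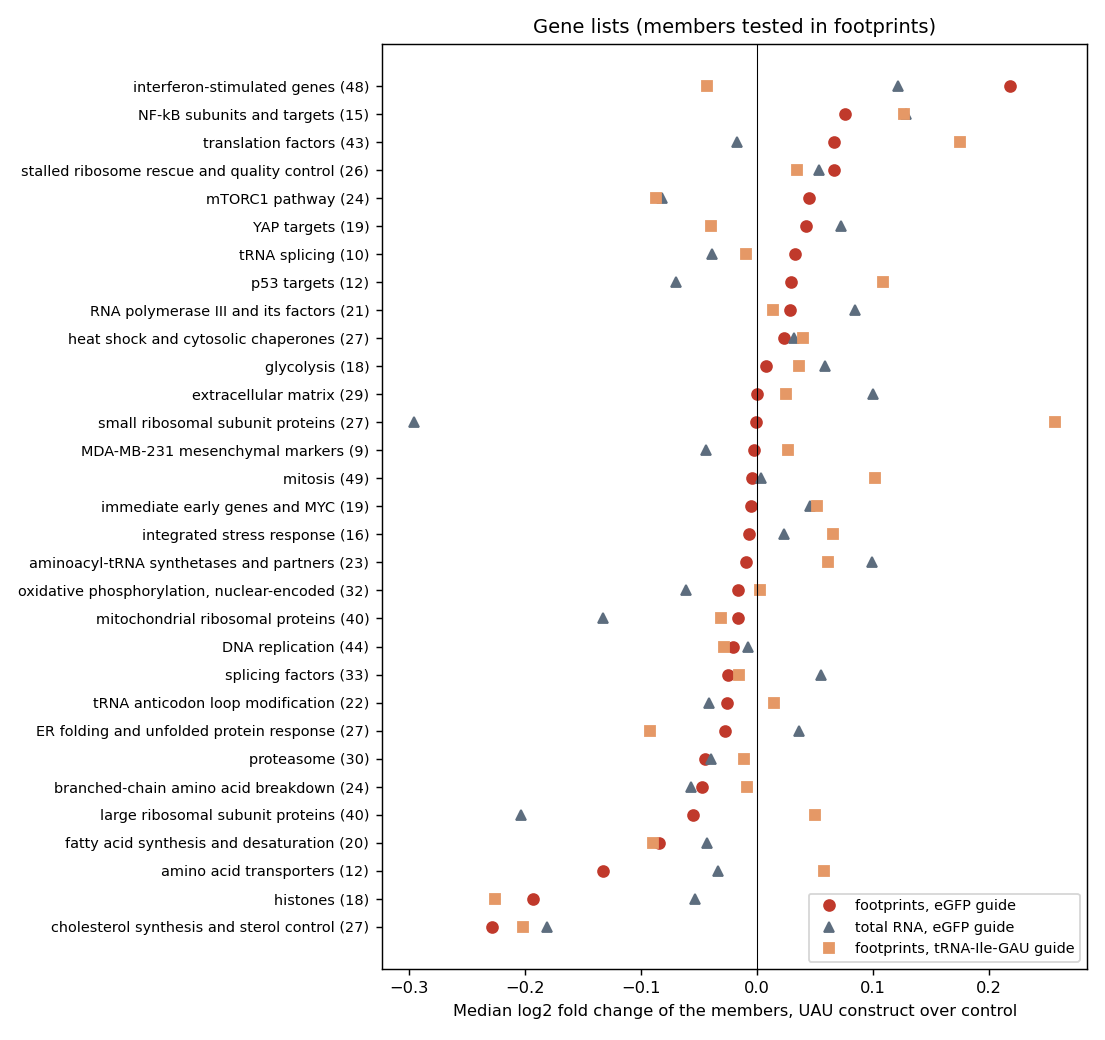
Median log2 fold change (tRNA-Ile-UAU construct over control) of each gene list with at least 5 members tested in footprints, for footprints under the eGFP guide (circles), total RNA under the eGFP guide (triangles) and footprints under the tRNA-Ile-GAU guide (squares); numbers in brackets are members tested. Interferon-stimulated genes lie highest under the eGFP guide at 0.22 and at -0.04 under the tRNA-Ile-GAU guide, and cholesterol genes lie lowest at -0.23 and at -0.20.

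The machinery that makes, charges and uses tRNA-Ile showed no call, but only 0.0246% of all tested genes were called. Lists of this size would therefore mostly hold none. Footprints on IARS, the cytosolic isoleucyl-tRNA synthetase that loads isoleucine on all of these tRNAs, were 555 and 585 CPM with the construct and 584 and 551 CPM with the control. The groups overlapped, and the 95% interval of the log2 fold change of 0.01 ± 0.12 ran from -0.24 to 0.26. IARS2, the mitochondrial enzyme, had 206 and 224 CPM with the construct and 222 and 178 CPM with the control (log2 0.11 ± 0.17). Of the 23 aminoacyl-tRNA synthetases and partners, 10 were higher and 13 lower, against 49.6% and 50.4% of all tested genes. Their median log2 fold change was -0.01. Only 1 was lower and 0 higher at an unadjusted p under 0.05, against 2.73% and 2.30% of all tested genes.

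Genes of tRNA splicing, tested because the UAU transcripts carry an intron, were higher in 6 of 10 and lower in 4. Their median log2 fold change was 0.03. At an unadjusted p under 0.05 stood 0 of them, against 2.30% higher and 2.73% lower of all tested genes. Enzymes that modify the anticodon loop were higher in 10 of 22 and lower in 12. Among them ALKBH8, which methylates wobble uridines, had log2 1.20 ± 0.55 from 7 and 13 counts with the construct and 7 and 4 with the control. QTRT1, which inserts queuine, had log2 -0.61 ± 0.28. RNA polymerase III subunits and factors were higher in 13 of 21 and lower in 8, with a median of 0.03. Of all tested genes 49.6% were higher and 50.4% lower.

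Responses known to follow stalled ribosomes or uncharged tRNAs held no called gene, where only 0.0246% of all tested genes were called. Lists of this size would mostly hold none. Of all tested genes 49.6% were higher and 50.4% lower. Of 26 genes of stalled ribosome rescue, 16 were higher and 10 lower, with a median log2 fold change of 0.07. ZNF598, the ubiquitin ligase that senses collided ribosomes, had 45.7 and 40.2 CPM with the construct, against 28.6 and 22.04 CPM with the control (log2 0.74 ± 0.36, adjusted p = 0.953). Genes of the integrated stress response were higher in 8 of 16 and lower in 8, with a median of -0.01. The mTORC1 pathway had 13 of 24 higher and 11 lower. Amino acid transporters had 3 of 12 higher and 9 lower with a median of -0.13, against -0.00 over all tested genes, and 0 reached an unadjusted p under 0.05. Outside these responses, translation factors had 26 of 43 higher and 17 lower with a median of 0.07. Mitosis genes, also a separate list, had 23 of 49 higher and 26 lower with a median of -0.00. Among them ECT2, a cytokinesis exchange factor, had log2 0.30 ± 0.14 and CDC25C, a phosphatase of mitotic entry, log2 0.64 ± 0.31.

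Total RNA of the same comparison gave no call. Of 11720 genes tested, 0 (0.0%) had an adjusted p under 0.05 by edgeR, 233 (1.99%) had an unadjusted p under 0.05, and DESeq2 called 1. Translational efficiency, the footprint fold change less the total RNA fold change in 1 fit of all 16 libraries, gave 0 calls of 8012 (0.0%) and 220 (2.75%) at an unadjusted p under 0.05; DESeq2 was not run on it. The sources used here do not say whether both assays were counted with the same settings and annotation, and 22 genes tested in footprints have 0 total RNA counts in all 8 libraries, so a translational efficiency may hold a difference in counting. On this scale GBP2 had log2 1.15 ± 0.32 (unadjusted p = 0.00264, adjusted p = 1.00), RPL7A log2 0.82 ± 0.28 and NDUFA4 log2 2.14 ± 0.51, and INSIG1 log2 -0.21 ± 0.26. Across the 8012 genes the footprint and total RNA fold changes correlated at a Pearson coefficient of 0.08 and a Spearman coefficient of 0.09, a description over genes that share their libraries. Of the 24 genes named by p, 21 were tested in total RNA, and 13 of these had the same sign there as in footprints.

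Among ribosomal protein genes most members were lower in total RNA, by a difference that was largest in 1 construct library. Of 79 tested, 71 were lower with the construct, against 49.5% of all genes tested in total RNA, with a median log2 fold change of -0.25, while their footprints had medians of -0.05 and -0.00 in the large and small subunits. Summarised per library, the deviation of the 79 genes was -0.32 and 0.04 in the construct libraries, against 0.19 and 0.08 in the controls. Construct replicate 1 thus lay lowest, and construct replicate 2 lay below both controls by less. With the tRNA-Ile-GAU guide the direction was the opposite. Total RNA was higher with the construct in 43 of 47 large-subunit genes (median log2 fold change 0.31) and 30 of 32 small-subunit genes (0.44). Of all genes tested, 56.0% were higher. By edgeR 0 were called, and 2, both of the small subunit, were higher at an unadjusted p under 0.05. Replicates of the construct with that guide correlated at 0.958 in total RNA, against 0.983 to 0.986 in the other total RNA groups. Whether 1 library carried this difference was not tested.

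The same construct was also measured in cells with the tRNA-Ile-GAU guide, against the control construct with that guide. These 4 footprint libraries share none with the eGFP-guide comparison, although all 8 enter 1 estimate of spread. There 36 of 8143 genes (0.442%) were called, 11 higher (0.135%) and 25 lower (0.307%), and 677 (8.31%) had an unadjusted p under 0.05. Across all genes the construct effect had the same sign with both guides in 4306 of 8143 (52.9%), and at Pearson and Spearman coefficients of 0.08 each the fold changes were close to unrelated. Of the 2742 genes whose groups did not overlap under the eGFP guide, 1500 had the same sign (54.7%).

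Among the 12 lower genes named by p under the eGFP guide, 10 were also lower under the tRNA-Ile-GAU guide, and among the 12 higher ones 6 were also higher. Of these 24, 6 were called in the same direction there, INSIG1, FADS2, SCD, HIST1H2BF, CYR61 and VSTM2A, and 1, LSM4, in the opposite one. INSIG1 had 154 and 97.5 CPM with construct and tRNA-Ile-GAU guide, against 205 and 234 CPM with the control and that guide (log2 -0.76 ± 0.16, adjusted p = 0.00354). SCD had 952 and 745 CPM in these construct libraries, against 1368 and 1069 CPM in the controls (log2 -0.51 ± 0.11, adjusted p = 0.0042), and FADS2 715 and 569 CPM, against 978 and 815 CPM (log2 -0.47 ± 0.11, adjusted p = 0.0144). All construct libraries of the 3 genes thus lay below the controls of their own guide, with either guide. CYR61 had 1349 and 1278 CPM with the construct, against 1033 and 861 CPM with the control (log2 0.47 ± 0.11, adjusted p = 0.00888), and CTGF 707 and 724 CPM, against 587 and 503 CPM (log2 0.39 ± 0.12, adjusted p = 0.103).

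The gene lists went the same way in part. Of all tested genes, 50.0% were higher and 50.0% lower with the construct under the tRNA-Ile-GAU guide. Calls there were 0.135% of all tested genes upwards and 0.307% downwards. Cholesterol genes had 5 higher and 22 lower there as well, with a median log2 fold change of -0.20 and 2 called lower, and histones 5 higher and 13 lower with a median of -0.23 and 3 called lower. Fatty acid genes had a median of -0.09 and 3 called lower. Interferon-stimulated genes had 20 higher and 28 lower there with a median of -0.04, and 0 were called. YAP targets had 9 higher and 10 lower there, with 1 called higher. Their median was -0.04, against 0.04 under the eGFP guide.

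RPL7A and GBP2 differed in how they appeared under the second guide. RPL7A had 162 and 203 CPM with construct and tRNA-Ile-GAU guide, against 101 and 139 CPM with the control and that guide (log2 0.58 ± 0.16, adjusted p = 0.0799), higher in both construct libraries. GBP2 had 42.8 and 52.7 CPM with the construct and 57.8 and 48.9 CPM with the control, and these overlapped (log2 -0.19 ± 0.24, adjusted p = 0.920). The difference between guides in the construct effect, tested as an interaction, was -1.45 ± 0.37 (log2) for GBP2 with an adjusted p of 0.103 and -0.25 ± 0.25 for RPL7A with an adjusted p of 0.994. Neither passed the threshold, so a difference between the guides was not shown for either gene.

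**Figure D4:**
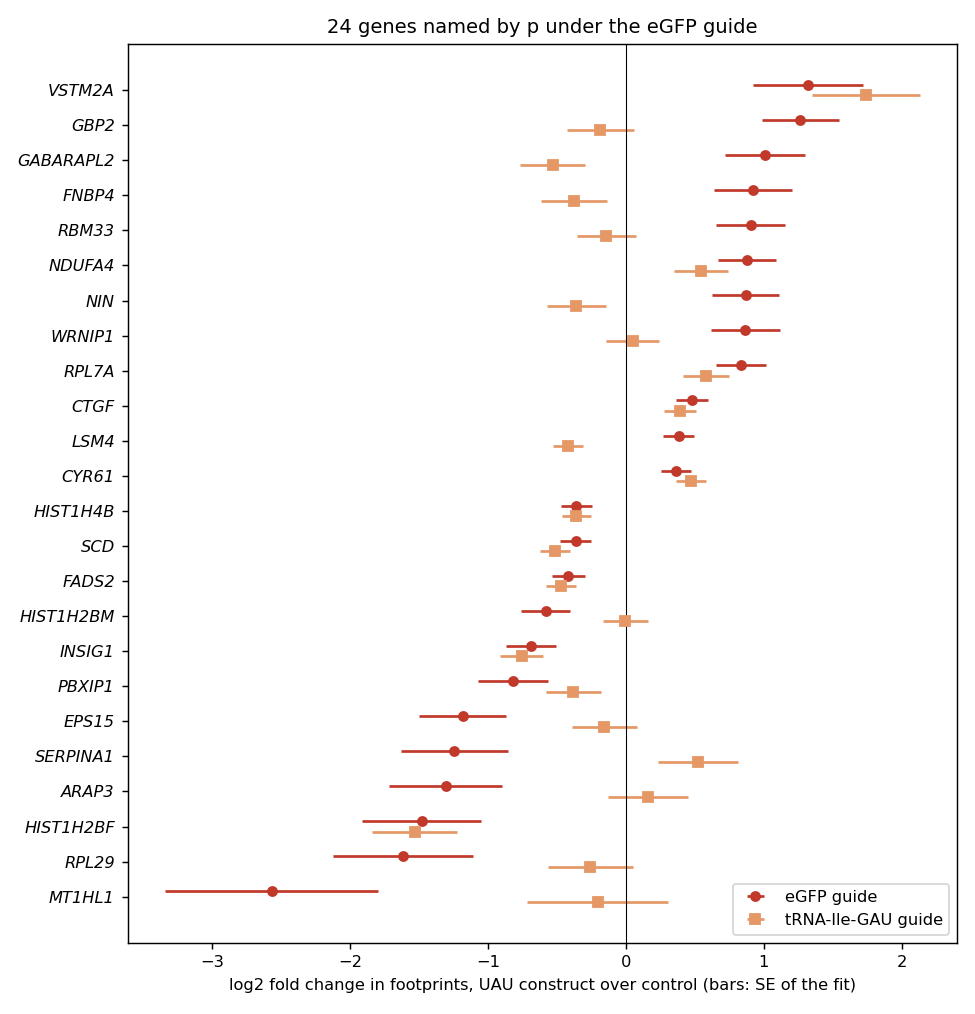
Log2 fold change in footprints (tRNA-Ile-UAU construct over control, horizontal axis; bars are the SE of the fit) of the 24 genes named by p under the eGFP guide (circles) and under the tRNA-Ile-GAU guide (squares), which share no library. Of the 12 lower genes, 10 lie below 0 with both guides, and of the 12 higher genes 6 lie above 0 with both; the eGFP-guide values chose the genes.

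The interaction test called 5 of 8143 genes (0.0614%), all with a lower construct effect under the tRNA-Ile-GAU guide than under the eGFP guide, and 475 (5.83%) had an unadjusted p under 0.05. LSM4 was the 1 gene among the 24 named by p in this group, with 2108 and 3573 CPM for construct and tRNA-Ile-GAU guide and 3345 and 4222 CPM for the control and that guide (log2 -0.42 ± 0.11, adjusted p = 0.0367). The groups overlapped under that guide, and the interaction was -0.80 ± 0.15 (adjusted p = 0.0023). DESeq2 called 0 genes in this test, as did edgeR without construct replicate 2, and 1 gene was called when either control replicate was left out.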

How the data were processed

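The deposited files hold raw counts of reads per gene symbol for each library. The tools named, per the submitters' processing notes, are HTSeq, STAR 2.5.2a and cutadapt 1.17, and the genome is hg38; the settings, the strand mode and the annotation are not given in the sources used here, so overlapping and antisense genes cannot be told apart. A gene absent from a footprint file was given a count of 0, and the 5 HTSeq summary lines stayed out of library sizes and tests. Per the labels, ribosomes were pelleted through sucrose and RNA was extracted with Trizol.

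Libraries were grouped by guide and construct as titled. Counts were tested with edgeR 4.0.16 (R 4.3.3) after filterByExpr (minimum count 10, minimum total 15), with TMM scaling, group means over the 8 libraries of an assay, 4 residual degrees of freedom and Benjamini-Hochberg adjustment over all tested genes; a gene was called at an adjusted p under 0.05. Total RNA counts, 2512247 to 5446599 per library, were tested likewise, and translational efficiency and the interaction of guide and construct as contrasts. The biological coefficient of variation was 6.71% in footprints, 14.3% in total RNA and 12.5% over both. CPM values are TMM-scaled. Only the edgeR footprint test of the construct alone was tried on simulated data, where 5 unchanged genes were called and 0 calls had the wrong sign.

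Genes were named by a rule: those called, the 12 tested genes with the lowest unadjusted p in each direction whose groups did not overlap, and the lowest 3 of each list. Members of the 36 gene lists, and the rule, were chosen with earlier results of these data known. Positions are from GRCh38.p14, where 23758 of 26485 symbols are current names, 1562 matched as older names and 1165 did not match. Same-numbered construct and control footprint libraries had deviations correlated at -0.04, so numbers were not taken as pairs. Alternatives were another scaling, filter, test (DESeq2 1.42.0), fit, replicate block, thinning and leaving out each library. Isoleucine codon content was not analysed here.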

Additional observations from a re-analysis of the deposited data

Results flagged for a closer look

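For 5 genes the footprint effect of the tRNA-Ile-UAU construct differed between the guides by edgeR's interaction test; each value is the log2 construct effect with the tRNA-Ile-GAU guide minus that with the eGFP guide. ROR2, a receptor of noncanonical Wnt signals, had -2.59 ± 0.45 (adjusted p = 0.000356). With the tRNA-Ile-GAU guide it had 8.56 and 19.2 CPM with the construct and 37.3 and 97.9 CPM with the control; with the eGFP guide it had 65.7 and 62.9 CPM with the construct and 67.4 and 42.4 CPM with the control. Its total RNA count was 0 in all 8 libraries. LSM4 had -0.80 ± 0.15 (adjusted p = 0.0023). CD55, a membrane inhibitor of complement, had -0.87 ± 0.18 (adjusted p = 0.0132), from 376 and 361 CPM with the construct and 589 and 464 CPM with the control under the tRNA-Ile-GAU guide, and 389 and 498 CPM with the construct and 350.2 and 354 CPM with the control under the eGFP guide. PDGFC, a growth factor of the PDGF family, had -1.44 ± 0.33 (adjusted p = 0.0447), with 80.0 and 85.6 CPM with the construct and 43.8 and 49.2 CPM with the control under the eGFP guide. TGM2, a crosslinking transglutaminase, had -0.72 ± 0.17 (adjusted p = 0.0447). Under the eGFP guide it had 606 and 606 CPM with the construct, against 463 and 482 CPM with the control, and under the tRNA-Ile-GAU guide 581 and 629.6 CPM with the construct, against 814 and 738 CPM with the control. For CD55, PDGFC and TGM2 the construct libraries lay above the controls with the eGFP guide.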

How the results depend on the processing

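The 2 footprint calls became 4 with the replicate block and 4 with a minimum count of 30, 8 when only the compared groups were fitted, and 0 without a filter, with DESeq2 or after thinning to the shallowest library. Leaving out 1 library gave 0 to 3 calls. GBP2 kept its sign in all 12 alternatives (log2 1.08 to 1.48) and was called in 5; RPL7A kept it too (0.49 to 1.04) and was called in 6. The 4 calls under the block were GBP2, RPL7A, NDUFA4 and CTGF, from a block of numbers that do not pair the libraries. Total RNA gave 5 calls without a filter, 1 with DESeq2 and 4 when only the compared groups were fitted, and 0 in the other alternatives; translational efficiency gave 2 when only those groups were fitted. The 5 interaction calls became 8 with the replicate block, 0 with DESeq2 and 0 to 4 with 1 library left out. ANKRD1 turned to -0.12 without construct replicate 2 and had 0.78 without construct replicate 1. The causes were not tested. Medians of cholesterol genes (-0.31 to -0.16), histones (-0.26 to -0.08) and interferon-stimulated genes (0.12 to 0.29) kept their sign in 12 of 12 alternatives. Of 372 list medians under alternatives, 310 moved by less than the spread between replicates. The planned summary by isoleucine content was not run, because coding and protein sequences were not used here. Depth, lowest in construct replicate 1, limits genes of low level.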

Other observations

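In total RNA, where edgeR called no gene, the 5 lowest p-values in each direction were read by a rule added after the values were seen. On the higher side stood IQGAP1, a scaffold of the cortical cytoskeleton (log2 0.66 ± 0.12 with the construct over control), CDH11, a mesenchymal cadherin (0.73 ± 0.17), and ACTN1, an actin crosslinker (0.49 ± 0.12), beside CYR61 and CAPN12. On the lower side stood INSIG1 and SNORA73A, a small nucleolar RNA (-0.75), with RNF185, FBXL4 and PEX10. Each had an adjusted p of 0.999 by edgeR. IQGAP1 was the 1 gene called by DESeq2. It was also called by edgeR without a filter on low counts, with CYR61 among the 5 calls, and when only the compared groups were fitted, with ACTN1 and INSIG1 among the 4. Footprints on IQGAP1 had log2 -0.10 ± 0.12.

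Of the 8143 genes tested in footprints, 131 were not tested in total RNA, and 22 had 0 total RNA counts in all 8 libraries. Among the 22 were EIF4A1, the helicase of translation initiation, with a mean of 618 CPM in footprints, SLC22A2 with 433 CPM, MTPN with 184 CPM and ROR2 with 59.6 CPM. Of the 24 genes named by p, 3 were among them, VSTM2A, HIST1H2BF and MT1HL1. Footprints and total RNA of these genes cannot be set beside each other; whether the assays were counted alike is not given in the sources used here and was not tested.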
